A study of Arabidopsis thaliana with 12 samples.

Results

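CCS (AT1G12520) and AT2G28660 are the 2 copper chaperone genes for which the array held a probe naming no other gene, out of 691 genes with such a probe and 3439 probes in all. CCS was read by probe 347 and AT2G28660 by probe 3760. The members were chosen by gene name and annotation, but with the changes between the 2 groups already known, so their own changes are given here as a description, and the calls of the fit over all probes are listed for them without being read as evidence.

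The arrays carried total RNA of wild-type Arabidopsis thaliana, ecotype Columbia 0. In all, 6 samples came from plants at a normal iron supply (control) and 6 from plants at high iron. The sources used here do not give the tissue, the age of the plants, the iron dose or its duration, so the label could not be set against tissue markers. Each sample gave 1 intensity per probe on a linear scale from 0 to 100, and the samples carry the numbers 1 to 6 in each group. The labels name no separate plants or cultures behind these numbers, so p-values cover only the spread among these arrays, and that spread may be technical.

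Copper is needed by enzymes of electron transport and antioxidant defence, but as a free ion it is reactive, and cells pass it from protein to protein through chaperones. CCS, the copper chaperone for superoxide dismutase, loads copper into the copper/zinc superoxide dismutases, which convert superoxide to hydrogen peroxide and oxygen. In Arabidopsis its transcript belongs, with those of some of these dismutases, to the targets of the microRNA miR398, which accumulates when copper is scarce. AT2G28660 codes for a protein with a heavy-metal-associated domain, the fold that copper chaperones use to hold the metal, and is annotated as a copper chaperone type protein. Excess iron feeds the formation of reactive oxygen species from hydrogen peroxide.

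The transcript level of AT2G28660 was higher at high iron in each of the 6 sample numbers, at 2.15 times the control level after quantile normalization (log2 change 1.10, SE 0.11, n = 6 per group). CCS differed much less, by a log2 change of 0.48 (SE 0.34), and its sign depended on how the arrays were scaled. CCS varied far more between sample numbers than between the 2 iron supplies, whereas AT2G28660 showed the opposite. In bulk RNA, a change in transcript per cell and a change in the share of cells that express a gene cannot be told apart.

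For AT2G28660 the deposited intensity in control samples ran from 0.495 to 0.577 with a median of 0.552. In high iron samples it ran from 0.737 to 1.14 with a median of 0.941. The groups did not overlap, as for 4.89% of all probes in that direction with deposited values. The lowest high iron sample, number 5, was at 1.28 times the highest control sample, number 4. The control samples lay close together, with a mean of 0.544 ± 0.028 (SD, n = 6), a coefficient of variation of 5.16%. The high iron samples were more spread, at 0.930 ± 0.154 (SD, n = 6), a coefficient of variation of 16.5%, and samples 3 and 4 were the highest while 5 and 6 were the lowest.

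For CCS the deposited intensity in control samples ran from 0.155 to 0.522 with a median of 0.279. In high iron samples it ran from 0.176 to 0.435 with a median of 0.218. The groups overlapped almost completely. The means were 0.319 ± 0.138 in control and 0.276 ± 0.123 in high iron samples (SD, n = 6 each), with coefficients of variation of 43.3% and 44.6%. In both groups samples 1 and 2 were the brightest, and the lowest control sample was number 6. The CCS probe was in the dimmest 25 percent of probes by its mean, and after quantile normalization its control sample 6 lay only 0.10 log2 units above the floor of 0.106 put under low normalized values. No normalized value of either gene lay at that floor.

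**Figure D1:**
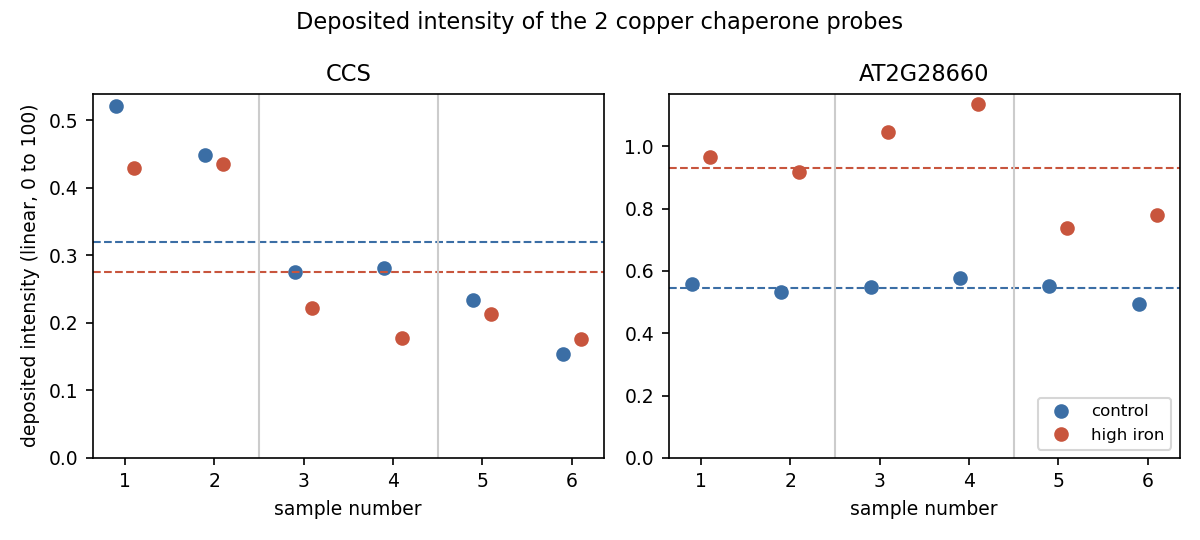
Deposited intensity (linear scale, y axis) of the CCS and AT2G28660 probes in each sample by its number (x axis), with control in blue and high iron in red. Dashed lines are group means and grey lines part the sets of sample numbers. The 6 high iron values of AT2G28660 lie between 0.737 and 1.14, all above the control values, as for 4.89% of all probes. CCS is brightest in samples 1 and 2 of both groups.

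Within each group the samples resemble each other in sets of 2 by number, namely 1 with 2, 3 with 4 and 5 with 6, and the labels do not say what a set stands for. The CCS level differed strongly between these sets. Its mean intensity was 0.485, 0.279 and 0.194 in the control sets, in that order, and 0.432, 0.200 and 0.195 in the high iron sets. The highest set was thus at 2.50 times the lowest in control and 2.22 times in high iron samples. AT2G28660 was nearly level across the control sets, at 0.544, 0.564 and 0.524, so that the highest was 1.07 times the lowest. Its high iron sets stood at 0.941, 1.09 and 0.758, a ratio of 1.44.

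Arrays of the 2 groups differed in their overall brightness, with column medians from 0.555 to 0.618 in control and from 0.352 to 0.446 in high iron samples, and this bears on CCS directly. With deposited values the median change of all probes was -0.40 on the log2 scale. CCS then stood at -0.21 (SE 0.34), which is 0.19 above that median, and was higher at high iron in 1 of 6 sample numbers, number 6. After dividing each array by its median, CCS stood at 0.31 (SE 0.32) and was higher in 5 of 6. After quantile normalization, which gives all arrays the same distribution and is used below unless another scaling is named, it was higher in 6 of 6, as were 20.8% of all probes. AT2G28660 was higher at high iron in 6 of 6 sample numbers under all 3 scalings, as were 9.39% of all probes with deposited values. Its log2 change was 1.10 after quantile normalization, 1.28 (SE 0.16) after median scaling and 0.76 (SE 0.10) with deposited values. The last is a 1.69-fold higher level, and stood 1.16 above the median change of all probes.

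By sample number, the quantile normalized change of AT2G28660 was 1.30 in both 1 and 2, 1.17 in 3, 1.21 in 4, 0.70 in 5 and 0.95 in 6. The change of CCS was 0.34 in 1, 0.60 in 2, 0.58 in 3, 0.30 in 4, 0.30 in 5 and 0.75 in 6. With deposited values the same numbers gave CCS changes of -0.28, -0.05, -0.31, -0.67, -0.14 and 0.19. AT2G28660 was thus weakest in samples 5 and 6 under each scaling, and CCS had no set that stood apart after quantile normalization.

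**Figure D2:**
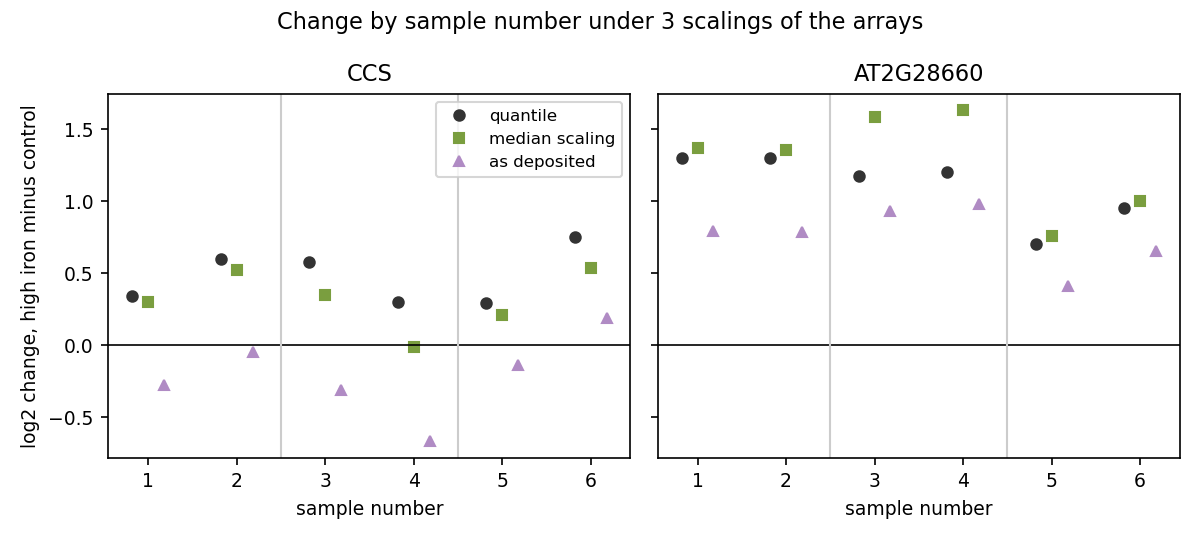
Log2 change, high iron minus control (y axis), of CCS and AT2G28660 between samples of the same number (x axis) after quantile normalization, after median scaling and with deposited values. All AT2G28660 points lie above 0, whereas the CCS points with deposited values lie below 0 in 5 of 6 numbers.

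Averaged by set, the log2 change of AT2G28660 was 1.30, 1.19 and 0.83, or 2.46-fold, 2.28-fold and 1.77-fold. That of CCS was 0.47, 0.44 and 0.52, or 1.39-fold, 1.36-fold and 1.44-fold. The CCS changes differed by less than the spread inside a set, which was 0.25 (SD of log2 values), and of all probes 28.2% were higher in all 3 sets. For AT2G28660 that spread was 0.07. The pair of CCS control samples 5 and 6 alone lay 0.73 apart, more than any of the 3 changes of the gene.

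Because both probes lie on the same arrays, the gap between their changes does not depend on any factor applied to a whole array. With such factors AT2G28660 changed by 0.97 more than CCS on the log2 scale, with gaps of 0.95, 1.44 and 0.51 in the 3 sets. After quantile normalization, which also reshapes each array, the gap was 0.63, with 0.83, 0.75 and 0.30 in the sets. The gap had the same sign in all 3 sets either way.

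The 12 log2 values of each gene were split into the shares of their sum of squares that belong to the iron supply, to the set, to a change that differs by set and to the spread inside sets. For AT2G28660 the iron supply held 90.9%, the set 5.24%, the differing change 3.07% and the spread inside sets 0.791%. For CCS the set held 76.6%, the iron supply 15.2%, the spread inside sets 8.19% and the differing change 0.0779%. Over the 3027 probes with fewer than 2 values at the floor, the median shares were 26.6% for the iron supply and 33.3% for the set. Among these, 1.59% had a larger share for the iron supply than AT2G28660, and 7.63% had a larger share for the set than CCS. For AT2G28660 the differing change held more than the spread inside sets, as its change was smaller in samples 5 and 6, while for CCS it held less. The median probe had 12.7% for the differing change.

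**Figure D3:**
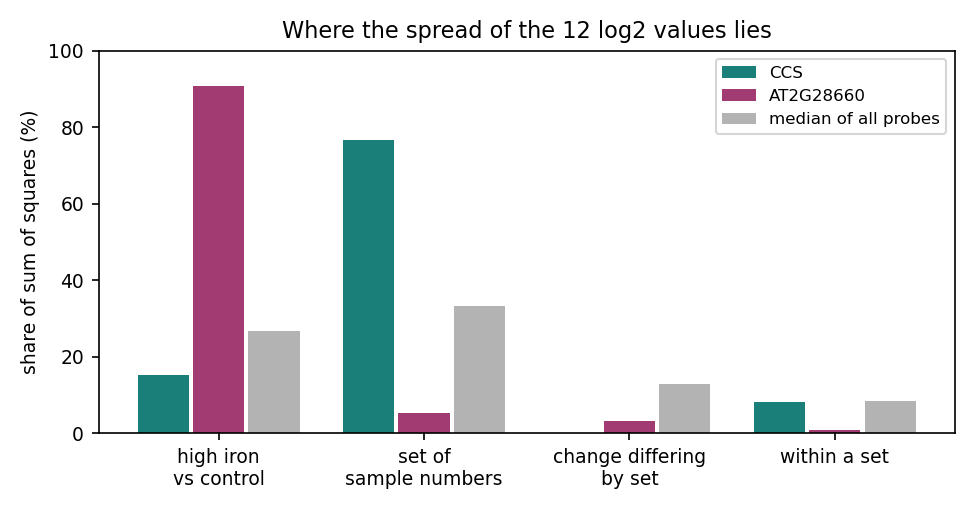
Share of the sum of squares (percent, y axis) of the 12 quantile normalized log2 values that belongs to each source (x axis), for CCS, AT2G28660 and the median of 3027 probes. The bar of AT2G28660 for high iron against control reaches 90.9%, and the bar of CCS for the set of sample numbers 76.6%.

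Set among all probes, 1.60% had a higher change than AT2G28660 after quantile normalization, 2.06% after median scaling and 2.09% with deposited values. Among the 692 probes with 1 gene it ranked 13th, 12th and 12th from the top. Its place thus hardly depended on the scaling, unlike its size. CCS was passed by 14.7%, 30.0% and 37.1% of all probes, and ranked 106th, 191st and 241st.

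**Figure D4:**
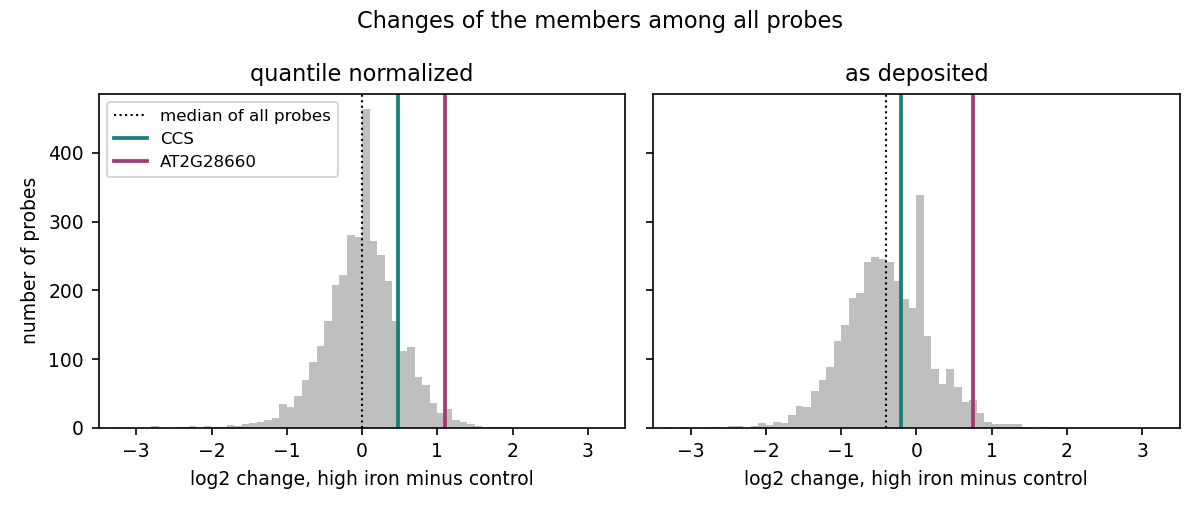
Number of probes (y axis) by log2 change, high iron minus control (x axis), over 3439 probes after quantile normalization and as deposited, with the members as coloured lines and the median of all probes dotted. AT2G28660 lies in the right tail in both panels, at 1.10 and 0.76, and CCS moves from 0.48 to -0.21 while the median moves from 0 to -0.40.

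In the limma fit over the 12 samples and all probes, 1 of the 2 members, AT2G28660, was called at an adjusted p under 0.05 (Benjamini-Hochberg), where 33.4% of all probes were called and 18.2% as higher. The groups of AT2G28660 did not overlap, as for 9.77% of probes in that direction after quantile normalization and 4.89% with deposited values. Nothing is read from these counts, because the same contrast was known when the genes were chosen. With the replicate number as a block, both members were called, where 40.5% of probes were, and the SE of CCS was 0.08. That block takes equal numbers as pairs, which the labels do not state. Over the 6 averages of the sets, AT2G28660 was called, where 2.38% of probes were, and the SE rose to 0.17 for AT2G28660 and 0.47 for CCS. With the set as a block over these averages limma called 0 of the 2 and 0.0291% of probes, while both members had an unadjusted p under 0.05, as had 1064 of all probes. The call of AT2G28660 thus ends there, and that of CCS appears only where the differences between numbers are taken out over 12 samples, or with array weights, where CCS stood at 0.86 and 48.3% of probes were called.

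Of the 55 other genes listed for copper handling and the removal of superoxide and peroxide, 1 had a probe of its own. No such probe was there for the list of 8 superoxide dismutases with a plastid cofactor, the 13 copper transport genes, the list of 6 copper proteins with their regulator or the other 7 copper chaperones, so the targets of CCS were not analysed here. Another 4 genes were only on probes annotated to more than 1 gene and are not named. The 1 measured gene was AT3G52960, a plastid peroxiredoxin that removes peroxides, which fell by 1.48 on the log2 scale (SE 0.52, adjusted p = 0.0462 in limma, n = 6 per group). Its change was -0.21, -2.91 and -1.33 in the 3 sets, all of the opposite sign to AT2G28660. For AT3G52960, however, high iron sample 4 lay at the floor, and sample 3 just above it. The sizes -2.91 and -1.48 thus depend on the floor chosen. With no floor, where non-positive values were left out, the change was -1.17 (SE 0.40, adjusted p = 0.0339 in limma), and the call held. With the floor at the 1st percentile of positive values the change was -2.26 (SE 1.11, adjusted p = 0.145 in limma). Without samples 3 and 4 of both groups it was -0.77 (SE 0.38, adjusted p = 0.189 in limma), and the call ended in both of these fits. The call also ended over the averages of the sets (adjusted p = 0.286).

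The single-gene probes whose 12 values followed those of CCS most closely, among 607 compared, were AT1G65500 (Pearson's r = 0.92, n = 12 samples), XERICO (0.92) and AT2G48130 (0.90). XERICO codes for a small RING-type zinc finger protein linked to abscisic acid. Their own log2 changes were 0.14 (SE 0.21), 0.19 (SE 0.20) and 0.48 (SE 0.19). With deposited values they stood at -0.40, 0.49 and -0.07, so that AT1G65500 and AT2G48130, like CCS, turned sign. The probes most like AT2G28660 were CSLA01 (r = 0.98), a cellulose synthase-like gene of the mannan-making family, APS4 (0.97), an ATP sulfurylase of sulphate assimilation, and AT1G65090 (0.97). Their log2 changes were 1.83 (SE 0.14), 1.12 (SE 0.15) and 0.89 (SE 0.13), and all 3 were also higher at high iron with deposited values, by 1.22, 0.55 and 0.25. They were picked for following a gene whose values differ mostly by iron supply. Their rise at high iron follows from that choice and is no separate result. These correlations describe 12 samples that share the groups and the sets, and the median r over the 607 probes was 0.01 for CCS and -0.03 for AT2G28660.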

How the data were processed

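The authors deposited 1 intensity per probe and sample on a linear scale; the sources used here give no scanning, background correction or scaling, and the direction of a change is that of the labelled groups. Probes were named from the platform annotation, with symbols updated through a gene table of assembly TAIR10.1 that held 690 of 692 single-gene probes. No build is named, so no positions are given, and no sequence table was used here. Groups came from the source names and replicate numbers from the titles. Arrays were quantile normalized, given a floor (0.106, the 5th percentile of positive values) that shrinks changes of dim probes, and log2 transformed. All 3439 probes were fitted with limma 3.58.1 in R 4.3.3 (mean trend, Benjamini-Hochberg), after a check on simulated data. The simulated arrays were independent, so that check does not cover the likeness of samples inside a set (correlation 0.774 in the data). The number of arrays limits the precision. The members, lists and likeness rule were chosen with earlier results of these data known. The genes named are the members, all listed genes with a probe of their own, and the 3 single-gene probes most correlated with each member. The gene table holds no descriptions, so a search for copper or superoxide dismutase among its names and synonyms added no gene. Deviations of samples with the same number correlated across groups between 0.13 and 0.52 for all 6 numbers. They were not compared with correlations between different numbers, so they do not show that equal numbers are pairs. The labels do not state such a pairing either. Alternatives were 2 other scalings, other floors, a filter on dim probes, blocks, averages of sets, array weights and samples left out.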

Additional observations from a re-analysis of the deposited data

How the results depend on the processing

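AT2G28660 kept its sign in all 31 alternatives run and its call in 30, the exception being the averages of sets with the replicate block, where its change was still 1.10. CCS kept its sign in 29 of 30 and was called in 2, with the replicate block over 12 samples (0.48) and with array weights (0.86). Of all probes, 33.4% were called in the main fit, 40.5% with that block and 48.3% with array weights. The alternatives reuse the same 12 arrays, and both genes were chosen with this contrast known, so nothing is read from these counts. With deposited values CCS turned to -0.21, with -0.16, -0.49 and 0.026 in the 3 sets, while AT2G28660 stood at 0.76, with 0.79, 0.95 and 0.53. After median scaling, in samples 3 and 4 CCS stood at 0.17 and AT2G28660 at 1.61. Leaving out 1 sample in turn gave 0.27 to 0.64 for CCS, lowest without control sample 6, and 1.05 to 1.17 for AT2G28660. Alternatives added after seeing the data left out a set of 1 group: CCS was 0.13 without control samples 5 and 6, 0.16 without high iron samples 1 and 2, and 0.81 without control samples 1 and 2. The probes called numbered 1149, against 1892 with deposited values, 491 with the set as a random block, 82 over averages and 1 over averages with the replicate block. The count of other listed genes called, 1 (AT3G52960), was 0 in 17 of 25 alternatives, among them median scaling, the floor at the 1st percentile, averages with and without the replicate block, the set as a random block, array weights and leaving out samples 3 and 4 or 5 and 6 of both groups; leaving out 1 sample gave 0 to 1. The cause of these moves was not tested. CCS was too dim for the fit without the dimmest 25 percent of probes.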
